A study of Homo sapiens with 48 samples.

Results

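The semaphorins, plexins and neuropilins were described here as 31 genes, 20 semaphorins, 9 plexins and 2 neuropilins, taken by symbol from the 58870 genes with read counts. All 31 were found in the files. The 48 samples were cultures of 92-1, MEL202 or MP41, which are established lines of uveal melanoma with the genotype label WT, and their RNA was sequenced. Uveal melanoma is a cancer of the pigment cells of the eye. Each line received FHT-1015, an inhibitor of SMARCA4 and SMARCA2, the ATPases of BAF chromatin remodelling complexes, or DMSO, the solvent, for 4 or 24 h. Line 92-1 also received IDE196, a protein kinase C inhibitor, for 4 or 24 h, beside a DMSO set of its own. The 16 groups held 3 replicates each, called biological replicates in the titles. No doses are given in the sources used here, and what separated the replicates is not described, so p-values measure the spread between these samples.

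Semaphorins are guidance proteins first known from growing axons. Class 3 members are secreted, classes 4, 5 and 6 span the membrane, and SEMA7A is held by a lipid anchor. Plexins are their signalling receptors, and their cytoplasmic part inactivates small GTPases of the RAP and RAS families and so loosens adhesion and the actin skeleton. Most class 3 semaphorins need a neuropilin, NRP1 or NRP2, as the binding partner of an A-type plexin, while SEMA3E binds PLXND1 directly. Class 4 members bind mainly B-type plexins and PLXND1, class 6 members bind A-type plexins, and SEMA7A binds PLXNC1. Neuropilins also bind ligands of the VEGF family. Melanocytes arise from the neural crest, whose migrating cells are steered by semaphorins that act on neuropilins.

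Each library held between 11394088 and 32317711 reads in genes. In MEL202 the second 4 h replicate given FHT-1015 stood apart, with reads in 17592 genes where every other library had at least 20023. The lowest correlation of log2(CPM + 1) between replicates of a group was 0.9598 in MP41 DMSO at 24 h, 0.9627 and 0.9681 in MEL202 FHT-1015 and DMSO at 4 h and 0.9841 in MEL202 DMSO at 24 h, and at least 0.9901 in each of the other 12 groups. The summed level of 7 melanocyte lineage genes, in CPM (read counts scaled to library size), was between 7880 and 23100 in the DMSO libraries, and all 7 were lower with FHT-1015 at 24 h in each line, while 2 were higher and 1 was lower with IDE196. At 4 h FHT-1015 lowered 4 of the 7 in 92-1 and 1 of the 7, SOX10, in MEL202 and in MP41, and IDE196 lowered 1, MITF. The SOX10 log2 changes at 4 h were -4.94 in 92-1, -3.03 in MEL202 and -2.26 in MP41. Summed levels over the 48 libraries reached at most 1.7 CPM for 3 endothelial genes, 4.57 CPM for 3 immune genes, 14.6 CPM for 3 epithelial genes and 43.1 CPM for 4 fibroblast genes. Of the fibroblast genes, 2 were higher and 1 was lower of 3 tested in 92-1 with FHT-1015 at 24 h, 1 of 3 was higher in MEL202, none of 4 was called in MP41 and 1 of 4 was higher with IDE196. At 24 h with FHT-1015 the endothelial gene VWF was lower in MP41 and the immune gene PTPRC in MEL202 (log2 changes of -2.11 and -3.20), each the single gene of its list tested there, and no epithelial gene was called. The part of these marker genes in the changes below was not tested. Fewer cells with a gene's RNA and less of it per cell cannot be told apart in such bulk samples.

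In DMSO PLXNB2 and PLXNA1 were among the 5 highest members of every line, and the lines differed in their class 3 semaphorins and in their level of NRP2. Levels of different genes were compared as CPM per kilobase of exon (RPKM), as mean ± SD over the 6 DMSO libraries of both times. Values for 92-1, here and in the next paragraph, are from the DMSO set made with FHT-1015 unless the other set is named. In 92-1 the top member was SEMA6A, a ligand of PLXNA2 and PLXNA4, at 72.6 ± 7.05 RPKM (range 63.7 to 83.2), above PLXNA1, a co-receptor for secreted semaphorins, at 29.3 ± 1.75 and PLXNB2 at 23.2 ± 1.88. Next in 92-1 came SEMA4C, SEMA5A, PLXNC1 and PLXNB1, at 13.99, 12.97, 12.8 and 11.5 RPKM, with ranges that overlapped from one to the next. The order was another in the 92-1 set made with IDE196, where PLXNB2 was first at 53.01 ± 4 RPKM and SEMA6A second at 44.2 ± 2.25. SEMA5A stood at 23.5 ± 1.86 RPKM there, and SEMA4C, at 13.6 ± 1.18, was below PLXND1 at 17.7 ± 0.724. In MEL202 PLXNB2 was first at 46.3 ± 13.4 RPKM and PLXNC1, the SEMA7A receptor, second at 37.2 ± 11.3, with overlapping ranges. In MP41 PLXNB2 stood at 45.4 ± 14.3, SEMA6A at 30.4 ± 5.39 and NRP2 at 28.4 ± 6.08 RPKM, again with ranges that overlapped between neighbours.

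NRP2 was the main neuropilin of all 3 lines. Its 6 DMSO libraries spanned 22.6 to 38.7 RPKM in MP41, 6.05 to 9.41 in 92-1 and 1.29 to 2.64 in MEL202, with no overlap between lines, whereas NRP1 did not pass 0.102 RPKM in any of them. Among secreted ligands, SEMA3C ranged from 6.42 to 8.92 RPKM in 92-1 (9.88 to 14.98 in its set made with IDE196) and from 6.54 to 20.2 in MEL202. MP41 instead had SEMA3A, the axon repellent for which the family was first studied, as its highest class 3 member, at 4.95 to 9.95 RPKM. SEMA3A was at 0.203 to 0.357 RPKM in 92-1 (0.291 to 0.523 in its set made with IDE196) and 0.567 to 1.502 in MEL202. SEMA3G was at 1.96 to 5.63 RPKM in MP41 and at most 0.514 in the other lines. SEMA5A was at 0.846 to 1.55 RPKM in MP41 against 10.5 to 14.5 in 92-1 (21.6 to 26.8 in its set made with IDE196). PLXNA3 reached 1.43 to 4.24 RPKM in MEL202 and at most 0.0768 in MP41, and PLXNA4 had 0 to 8 reads in each MP41 library.

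Of the 30 members tested, 25 differed in DMSO between MEL202 and 92-1 (edgeR adjusted p under 0.05), where 55.4% of all genes tested did, 22 between MP41 and 92-1 (67.3% of all genes) and 22 between MP41 and MEL202 (58.3%). Here 92-1 was represented by its set made with FHT-1015, and line and experiment cannot be told apart. Under the alternative settings the counts against 92-1 were 20 to 24 for MEL202 and 21 to 22 for MP41. The 2 DMSO sets of 92-1 also differed from each other, in 18 members where 39.1% of all genes did. PLXNB2, for example, was at 23.2 ± 1.88 RPKM in the set made with FHT-1015 and 53.01 ± 4 in the set made with IDE196, and SEMA6A at 72.6 ± 7.05 and 44.2 ± 2.25. Each drug was therefore compared with its own DMSO set. SEMA5B, with at most 7 reads in any library, could not be tested in any experiment. SEMA3E and SEMA4A (at most 3 and 7 reads) and NRP1 (at most 9 reads) were too low in the 92-1 FHT-1015 experiment, SEMA3E (at most 5 reads) in the IDE196 experiment, and SEMA4A and PLXNA4 (at most 12 and 8 reads) in MP41. A library with 0 reads of a gene allows up to 3 reads.

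**Figure D1:**
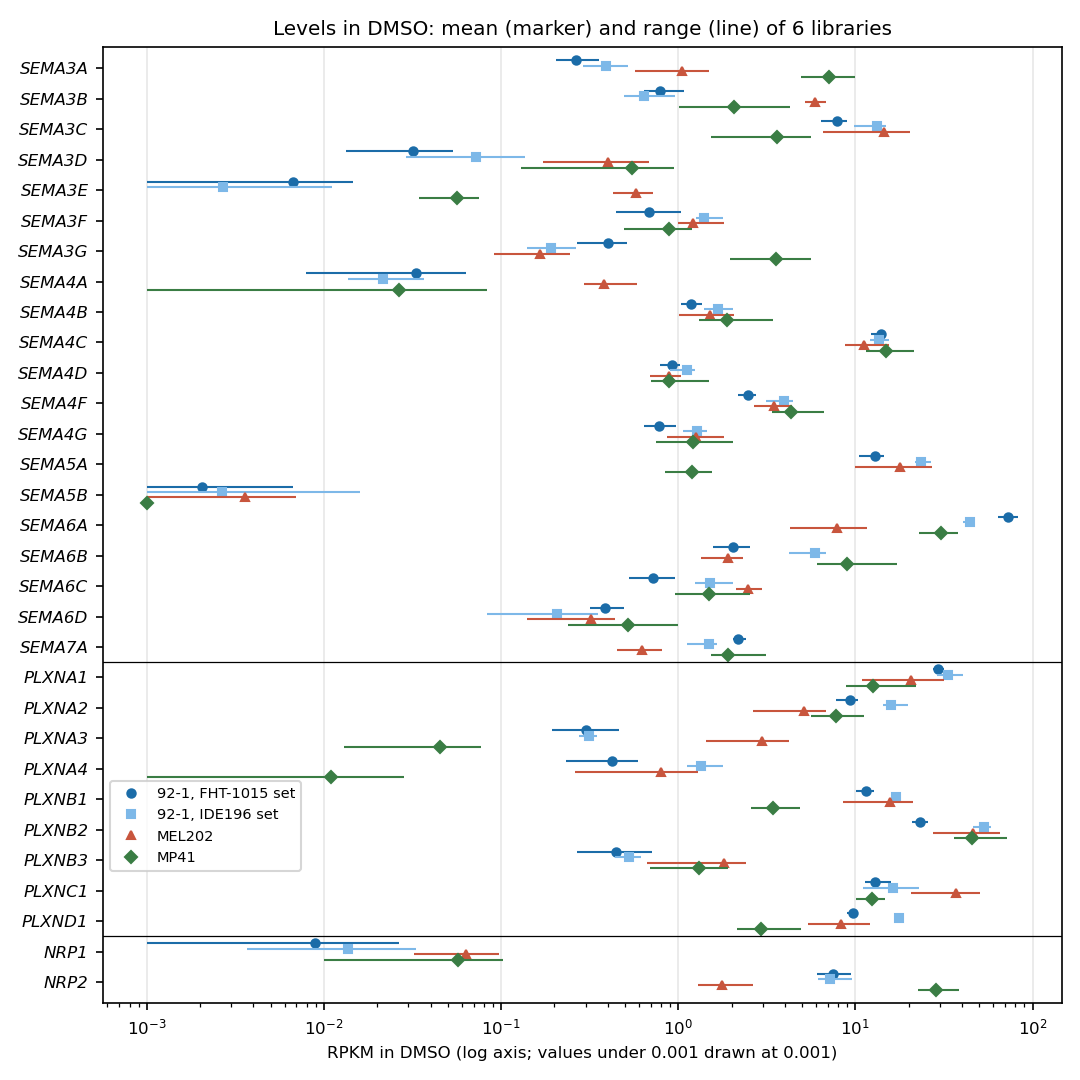
Levels of the 31 members in DMSO, as RPKM on a log axis, with the mean (marker) and range (line) of 6 libraries for each line and for both DMSO sets of 92-1. PLXNB2 and PLXNA1 were high in all sets, while SEMA5B, NRP1 and, outside MEL202, SEMA3E and SEMA4A lay at or below 0.102 RPKM in every library.

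At 24 h FHT-1015 lowered NRP2 and all called plexins but one, and raised most of the called semaphorins. In 92-1, 22 of 27 members tested were called changed, 13 higher and 9 lower, where 60.6% of all genes were (29.2% higher and 31.4% lower). In MEL202 17 of 30 were called, 11 higher and 6 lower, against 18.8% of all genes (8.69% higher, 10.1% lower), and in MP41 18 of 28, 9 in each direction, against 36.1% (17.4% higher, 18.7% lower). By kind of protein, semaphorins were higher in 12 and lower in 2 of 17 tested in 92-1, 10 and 1 of 19 in MEL202, and 8 and 3 of 18 in MP41. Plexins were higher in 1 and lower in 6 of 9 in 92-1, 0 and 4 of 9 in MEL202, and 0 and 5 of 8 in MP41. The median log2 fold change was 0.93, 0.96 and 0.66 for semaphorins and -1.999, -0.74 and -1.09 for plexins in 92-1, MEL202 and MP41, beside -0.001, -0.006 and 0.065 over all genes tested.

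Of the 26 members tested in every line, 7 were higher in all 3 lines at 24 h, namely SEMA3A, SEMA3C, SEMA3D, SEMA3F, SEMA4B, SEMA6C and SEMA6D, where 5.04% of all genes tested in every line were. Another 4, NRP2, PLXNA1, PLXNA2 and PLXNC1, were lower in all 3, where 7.65% of all genes were. None of the 26 was called in opposite directions in different lines, where 1.86% of all genes were. Fitted on the 6 libraries of each comparison alone, 4 members were higher in all 3 lines, and with limma-voom 7 were lower.

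**Figure D2:**
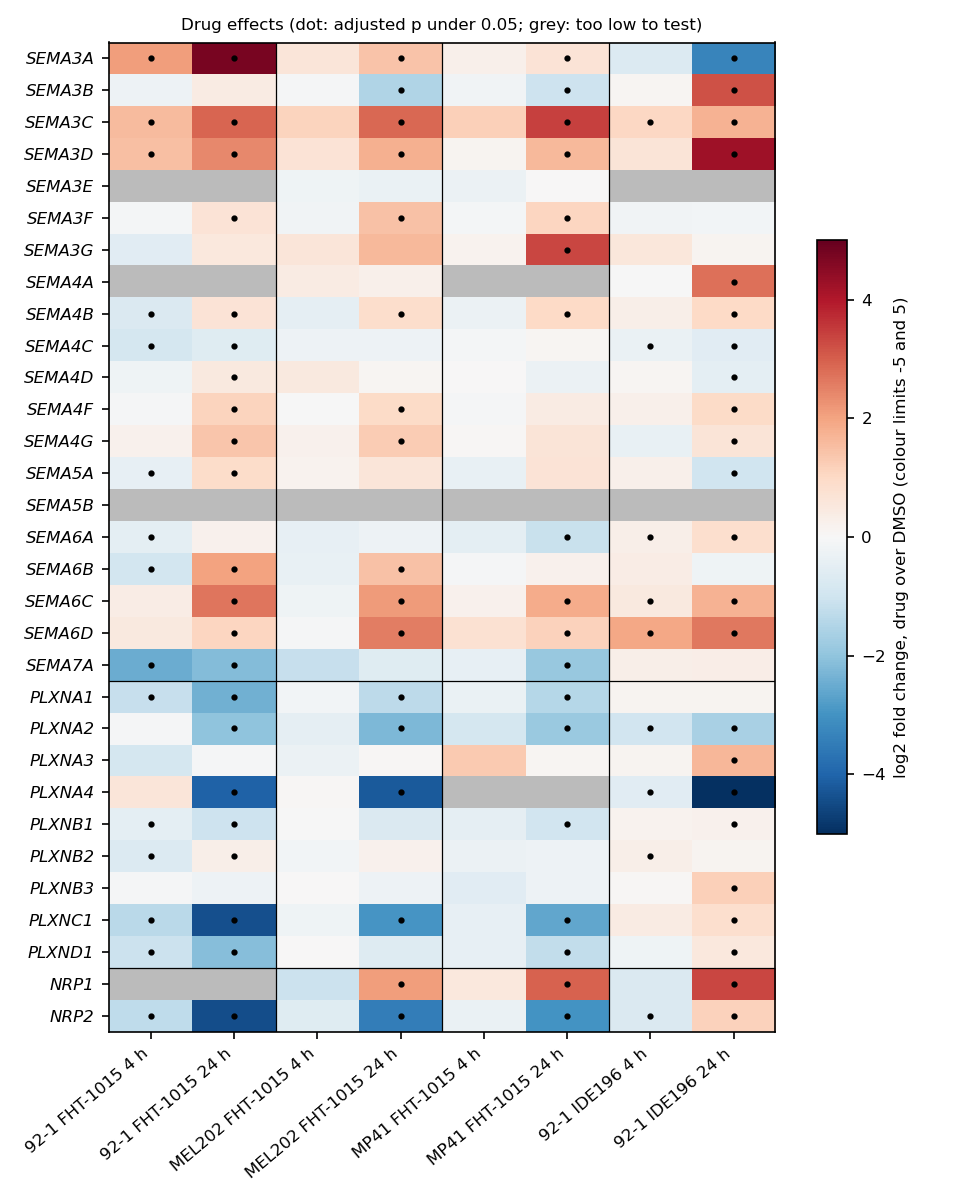
Log2 fold change of each drug over its DMSO for the 31 members (rows) in the 8 comparisons (columns), red for higher and blue for lower. Dots mark an adjusted p under 0.05 and grey cells were too low to test. In the 24 h columns of FHT-1015, the semaphorin rows at the top are mostly red and the plexin rows and NRP2 mostly blue.

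NRP2, the receptor partner for SEMA3C and SEMA3F (chromosome 2, 205681990 to 205798133, plus strand, GRCh38), fell the furthest of the called members in 92-1 and MP41. In 92-1 its 3 DMSO libraries at 24 h held 131, 107 and 97.4 CPM and its FHT-1015 libraries 6.34, 5.78 and 3.89 CPM. In MEL202 the values were 21.3, 22.5 and 18.99 CPM with DMSO and 1.94, 2.19 and 1.44 CPM with FHT-1015. In MP41 they were 447, 538 and 386 CPM and 55.7, 61.9 and 46.4 CPM. The groups did not overlap in any line, although MP41 with the drug still held more NRP2 than untreated MEL202. NRP2 fell, by log2 changes of -4.42 ± 0.20, -3.46 ± 0.32 and -2.995 ± 0.17 for the lines in that order (± SE, n = 3 per group, edgeR adjusted p = 6.04e-11, 1.40e-05 and 1.11e-07).

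NRP1 moved the other way from a very low level. It was at 0.611, 0.756 and 1.05 CPM in MEL202 DMSO and 3.03, 3.79 and 3.49 CPM with FHT-1015 at 24 h, and at 0.805, 0.116 and 0.763 (DMSO) and 3.73, 4.004 and 5.38 (drug) CPM in MP41. NRP1 rose by 2.94 ± 0.57 in MP41 (edgeR adjusted p = 0.00131) and by 2.095 ± 0.64 in MEL202 (0.0342). The MEL202 call was lost without any one of its 6 libraries at 24 h (adjusted p 0.0757 to 0.127). Per length, NRP1 with the drug was at 0.298 ± 0.0332 RPKM and NRP2 at 0.134 ± 0.0273 RPKM in MEL202 (mean ± SD, n = 3), and at 0.379 ± 0.0769 and 3.93 ± 0.5605 RPKM in MP41. In 92-1 NRP1 had at most 9 reads.

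Among plexins, PLXNC1 (chromosome 12, 94148723 to 94307675, plus strand, GRCh38) had the largest called fall of the plexins in 92-1 and MP41. In 92-1 it went from 121, 112 and 120.2 CPM in DMSO to 3.902, 4.397 and 8.26 CPM with FHT-1015 at 24 h. In MEL202 it went from 268, 445 and 378 to 47.3, 41.9 and 48.9 CPM, and in MP41 from 118, 99.4 and 108 to 20.3, 14.8 and 17.1 CPM. Every treated library lay below every DMSO library of its line. PLXNC1 fell, by log2 changes of -4.41 ± 0.20, -2.96 ± 0.31 and -2.58 ± 0.16 in 92-1, MEL202 and MP41 (edgeR adjusted p = 1.01e-10, 3.01e-05 and 1.60e-07). Its ligand SEMA7A was 7.73, 8.17 and 8.42 CPM in 92-1 DMSO and 2.02, 1.47 and 1.98 CPM with the drug, and in MP41 7.53, 11.9 and 6.06 (DMSO) and 2.05, 2.25 and 2.21 (drug) CPM. SEMA7A fell, by log2 changes of -2.16 ± 0.22 in 92-1 (6.12e-07) and -1.89 ± 0.25 in MP41 (6.99e-05), so that ligand and receptor were lower together there. In MEL202 SEMA7A held 1.72, 2.04 and 2.08 CPM with DMSO and 1.18, 1.25 and 1.35 with FHT-1015, which did not pass the test (0.265).

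Of the A-type plexins, which carry the signal of class 3 and class 6 ligands, PLXNA1 and PLXNA2 fell in all 3 lines and PLXNA4 in the 2 where it could be tested. PLXNA2 was 129.9, 107 and 117 CPM in 92-1 DMSO and 23.3, 32.2 and 34.4 CPM with FHT-1015 at 24 h. It was 46.2, 89.1 and 69.5 (DMSO) and 11.98, 14.7 and 16.3 (drug) CPM in MEL202, and 132, 155 and 77.1 (DMSO) and 37.3, 30.8 and 26.9 (drug) CPM in MP41. No groups overlapped, and PLXNA2 fell, by log2 changes of -1.999 ± 0.12, -2.23 ± 0.43 and -1.86 ± 0.22 in the 3 lines (edgeR adjusted p = 1.07e-09, 0.00265 and 2.66e-05). PLXNA1 was 345, 301 and 317 CPM in 92-1 DMSO and 62.9, 65.3 and 58.3 CPM with the drug. In MEL202 it was 159, 258 and 192 (DMSO) and 80.6, 72.4 and 87.9 (drug) CPM, and in MP41 160.3, 239 and 122 (DMSO) and 71.4, 57.7 and 56.5 (drug) CPM. PLXNA1 fell, by log2 changes of -2.39 ± 0.090, -1.32 ± 0.41 and -1.41 ± 0.20 in the 3 lines (1.17e-11, 0.0381 and 0.000136), and the MEL202 call was lost without any one of its 6 libraries at 24 h (adjusted p 0.0525 to 0.125). PLXNA4, a receptor for SEMA6A, fell to at most 1.29 CPM where it had been present, from 7.88, 4.48 and 3.81 to 0.627, 0.407 and 0 CPM in 92-1 and from 7.63, 21.2 and 11.5 to 0.237, 1.29 and 0.559 CPM in MEL202. PLXNA4 fell, by log2 changes of -4.05 ± 0.53 (7.29e-06) and -4.197 ± 0.67 (0.00073). PLXNA3 was not called in any line at 24 h.

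PLXND1, the receptor of SEMA3E, and PLXNB1, the receptor of SEMA4D, were lower in 92-1 and MP41. PLXND1 was 93.2, 89.3 and 99.3 CPM in 92-1 DMSO and 21.9, 20.4 and 23.3 CPM with FHT-1015, and 31.1, 47.8 and 24.3 (DMSO) and 15.2, 14.97 and 12.1 (drug) CPM in MP41. PLXND1 fell by 2.12 ± 0.091 (edgeR adjusted p = 4.40e-11) and by 1.21 ± 0.20 (0.000451). In MEL202 the PLXND1 libraries held 56.1, 90.3 and 80.2 (DMSO) and 49.95, 46.8 and 46.6 (drug) CPM, without a call (0.203). PLXNB1 was 102, 117 and 124 CPM in 92-1 DMSO and 54.1, 56.1 and 60.5 CPM with the drug, a change of -1.03 ± 0.10, and 41.4, 47.2 and 34.7 (DMSO) and 18.7, 19.1 and 22.3 (drug) CPM in MP41, a change of -0.97 ± 0.14. In MEL202 it was 128, 183 and 144 (DMSO) and 102, 79.4 and 87.04 (drug) CPM (0.167). PLXNB2, the highest plexin of MEL202 and MP41, was the one plexin called higher at 24 h. It was 160.2, 159 and 181 CPM in 92-1 DMSO and 228, 212 and 185 CPM with FHT-1015 at 24 h, a rise of 0.297 ± 0.11 (0.0261). That call was lost without the first or second replicate of either group (adjusted p 0.0758 to 0.124), and with a single fit of the 48 samples (0.272), and PLXNB2 was not called in the other lines. PLXNB3 was not called in any line.

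**Figure D3:**
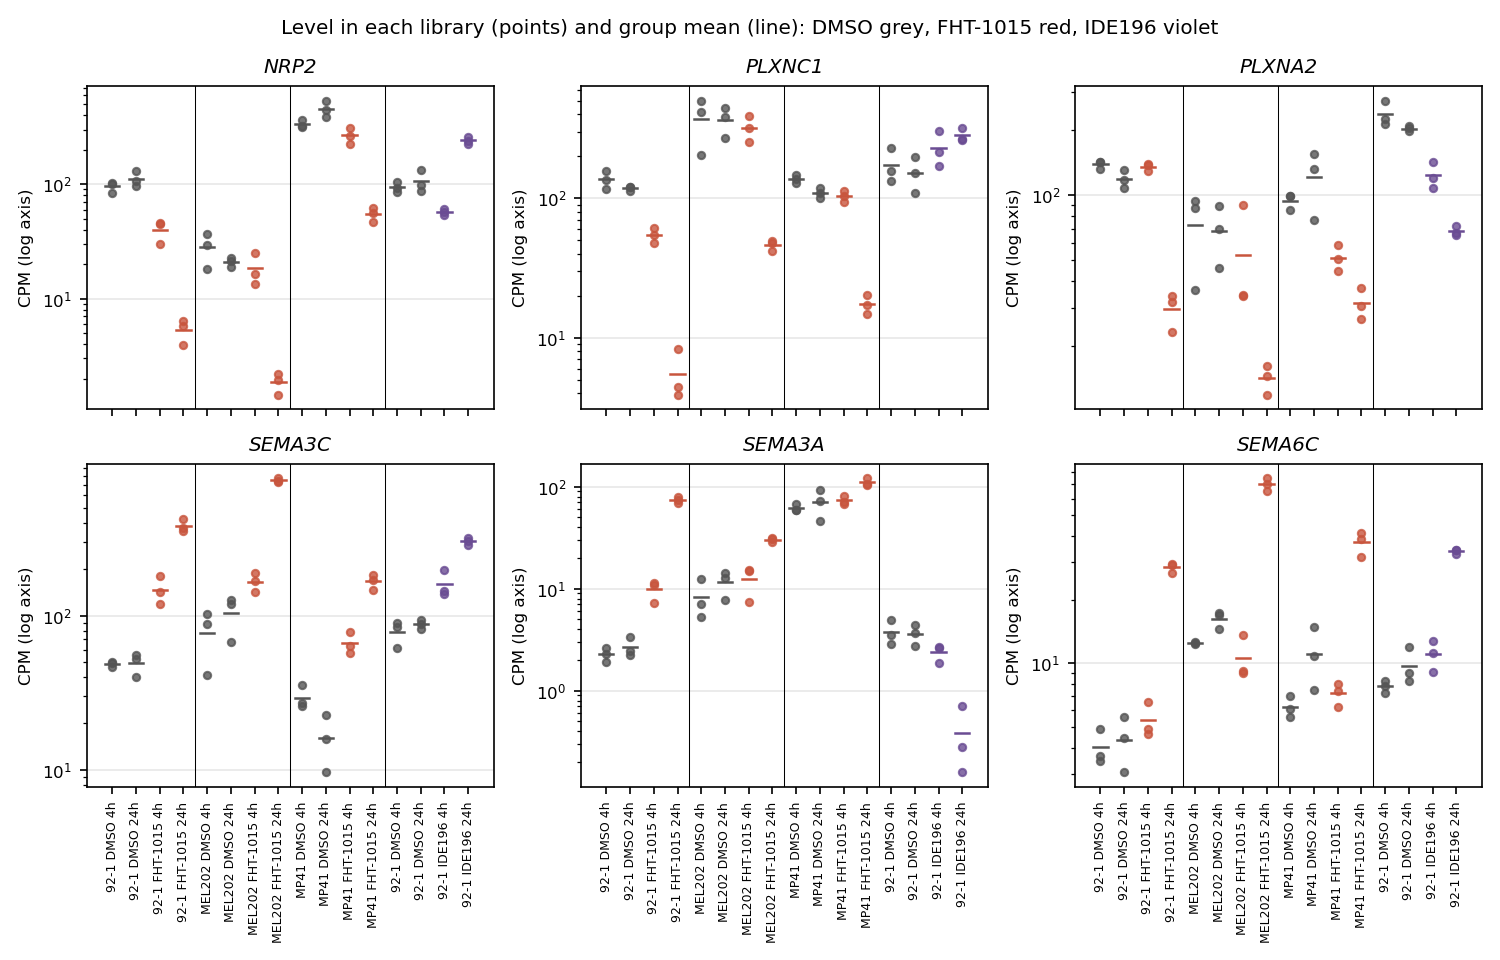
CPM of 6 members in each of the 48 libraries (points, log axis) with group means (lines), DMSO in grey, FHT-1015 in red and IDE196 in violet. At 24 h FHT-1015 libraries lie below their DMSO libraries for NRP2, PLXNC1 and PLXNA2 and above them for SEMA3C, SEMA3A and SEMA6C, while IDE196 raised NRP2 and lowered SEMA3A.

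Among the secreted ligands, SEMA3C (chromosome 7, 80742538 to 80922359, minus strand, GRCh38) rose in every line. Its libraries held 52.5, 40.2 and 55.9 CPM in 92-1 DMSO and 424, 355 and 369 CPM with FHT-1015 at 24 h. In MEL202 they held 67.9, 127 and 119 (DMSO) and 774, 732 and 749.8 (drug) CPM. In MP41 they held 15.8, 9.62 and 22.7 (DMSO) and 169.5, 147 and 182 (drug) CPM. The rises were 2.93 ± 0.14, 2.87 ± 0.32 and 3.41 ± 0.28 on the log2 scale, or 7.61-fold, 7.31-fold and 10.6-fold (edgeR adjusted p = 1.85e-10, 4.73e-05 and 1.59e-06). SEMA3C made up 83.7% to 85.1% of the summed RPKM of the 7 class 3 members in 92-1 with the drug at 24 h, 91.2% to 92.4% in MEL202 and 24.9% to 34.3% in MP41. In the DMSO libraries of 24 h its share was 71.8% to 79.2%, 58.2% to 67.4% and 8.89% to 17.3% in these lines.

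SEMA3A rose by different amounts in the 3 lines. In 92-1 it was 3.34, 2.46 and 2.21 CPM in DMSO and 78.9, 73.5 and 68.7 CPM with FHT-1015 at 24 h, a 26.9-fold rise (4.75 ± 0.18, edgeR adjusted p = 1.33e-11). In MEL202 it was 7.75, 14.1 and 12.7 (DMSO) and 30.9, 28.5 and 31.3 (drug) CPM, and in MP41 72.98, 46.4 and 93.3 (DMSO) and 120.3, 104 and 106 (drug) CPM. These are rises of 1.42 ± 0.33 (0.00851) and 0.68 ± 0.22 (0.0292). The MP41 call was lost without the first DMSO replicate or any one FHT-1015 replicate at 24 h (adjusted p 0.0528 to 0.0931). It was also lost with only the 6 samples compared (0.123) and with a single fit of the 48 samples (0.0519). MP41 had the highest SEMA3A level in DMSO and 92-1 the lowest, and treated 92-1 reached the DMSO range of MP41. SEMA3D, a further secreted member, was low throughout. It was 0.239, 0.246 and 0.184 CPM in 92-1 DMSO and 1.67, 0.489 and 1.496 CPM with the drug, 1.72, 4.77 and 3.79 (DMSO) and 11.7, 10.5 and 12.01 (drug) CPM in MEL202, and 1.89, 1.04 and 4.01 (DMSO) and 7.51, 8.01 and 5.73 (drug) CPM in MP41. No groups overlapped, and it rose by 2.42 ± 0.55, 1.76 ± 0.42 and 1.62 ± 0.39.

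SEMA3A, SEMA3C, SEMA3D and SEMA3E lie in one stretch of chromosome 7, between 80742538 and 85186855 (GRCh38), all on the minus strand. The first 3 rose in every line, while SEMA3E, between them, was not called in MEL202 or MP41, where it could be tested, and held 3.63, 5.29 and 4.75 CPM in MEL202 DMSO and 3.27, 3.52 and 3.77 CPM with the drug. SEMA3F and SEMA3B, which are neighbours on chromosome 3 (50155045 to 50189075 and 50267558 to 50277546, plus strand), went in opposite directions in MEL202 and MP41. SEMA3F, an NRP2 ligand, was 2.91, 3.68 and 5.04 CPM in 92-1 DMSO and 5.78, 6.51 and 6.53 CPM with FHT-1015, 4.999, 5.76 and 5.75 (DMSO) and 12.4, 16.6 and 16.4 (drug) CPM in MEL202, and 5.304, 5.79 and 4.98 (DMSO) and 12.8, 8.94 and 10.6 (drug) CPM in MP41. Its groups did not overlap in any line. SEMA3F rose by 0.68 ± 0.24, 1.48 ± 0.36 and 1.07 ± 0.21 (edgeR adjusted p = 0.0219, 0.0112 and 0.00164), and its call was lost in 92-1 without DMSO replicate 1 or 2 or FHT-1015 replicate 2 or 3 (adjusted p 0.0572 to 0.112) and in MEL202 without the first DMSO replicate (0.05 after rounding). SEMA3B went from 33.9 ± 4.97 to 11.7 ± 1.61 CPM (mean ± SD, n = 3) in MEL202, and in MP41 it went from 17.4 ± 6.19 to 7.996 ± 0.287 CPM, changes of -1.52 ± 0.21 and -1.05 ± 0.21. In 92-1 SEMA3B was not called. SEMA3G rose by 3.34 ± 0.24 in MP41, from 23.6 ± 6.02 to 229 ± 54.9 CPM, and was not called elsewhere.

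Of the class 6 ligands, SEMA6C and SEMA6D rose in all 3 lines. SEMA6C was 3.06, 4.42 and 5.59 CPM in 92-1 DMSO and 29.4, 26.6 and 29.1 CPM with FHT-1015 at 24 h. It was 14.5, 17.3 and 16.9 (DMSO) and 65.4, 74.7 and 70.2 (drug) CPM in MEL202, and 10.8, 14.8 and 7.46 (DMSO) and 41.4, 38.7 and 31.97 (drug) CPM in MP41. Its rises of 2.69 ± 0.20, 2.13 ± 0.21 and 1.84 ± 0.22 had adjusted p of 2.04e-08, 2.27e-05 and 2.56e-05 by edgeR. SEMA6D, a ligand of PLXNA1, was 4.25, 3.32 and 3.19 (DMSO) and 7.59, 8.39 and 6.94 (drug) CPM in 92-1, 2.404, 3.199 and 3.64 (DMSO) and 21.8, 16.01 and 16.8 (drug) CPM in MEL202, and 5.49, 4.87 and 8.55 (DMSO) and 11.6, 12.3 and 16.7 (drug) CPM in MP41. Every treated library was above every DMSO library of its line for both genes. SEMA6D rose by 1.06 ± 0.26, 2.58 ± 0.35 and 1.14 ± 0.26. SEMA6B rose in 92-1, from 8.55, 9.46 and 11.2 to 40.7, 42.02 and 36.8 CPM, and in MEL202, from 5.95, 7.97 and 10.3 to 20.3, 22.3 and 23.5 CPM, by 2.01 ± 0.18 and 1.47 ± 0.28. In MP41 its DMSO libraries ranged over 36.7 to 75.9 CPM and the treated ones over 47.8 to 61.5 CPM, with no call. SEMA6A, the most abundant ligand of 92-1, was called at 24 h in MP41 alone, where it fell by 1.11 ± 0.20 from 382, 414 and 290.1 to 200.0, 151 and 129 CPM (0.000839).

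Of the class 4 and 5 members, SEMA4B rose in all 3 lines. SEMA4B was 7.88, 7.25 and 8.72 CPM in 92-1 DMSO and 13.4, 13.7 and 12.2 CPM with FHT-1015 at 24 h, 10.1, 8.44 and 12.4 (DMSO) and 19.2, 18.1 and 18.4 (drug) CPM in MEL202, and 17.3, 23.99 and 9.55 (DMSO) and 31.3, 35.3 and 29.5 (drug) CPM in MP41. No groups overlapped, and it rose by 0.697 ± 0.14, 0.87 ± 0.28 and 0.997 ± 0.24 (edgeR adjusted p = 0.0004504, 0.0432 and 0.00511). The MEL202 call was lost without any one of the 6 libraries at 24 h, the second DMSO or the first FHT-1015 replicate at 4 h (adjusted p 0.0501 to 0.146). SEMA4F rose by 1.11 ± 0.12 in 92-1 and 0.96 ± 0.24 in MEL202, SEMA4G by 1.38 ± 0.17 and 1.27 ± 0.28, and neither was called in MP41. The SEMA4F call in MEL202 was lost without DMSO replicate 1 or FHT-1015 replicate 1 or 3 at 24 h (adjusted p 0.0503 to 0.0692). The SEMA4B call in MEL202 was also lost with no filter on low counts (0.0547), and that in MP41 with only the 6 samples compared (0.0581). In SEMA4G 27.4% of exon bases overlap genes on the opposite strand, whose reads these unstranded counts cannot separate. SEMA4C fell by 0.61 ± 0.096 and SEMA4D, the ligand of PLXNB1, rose by 0.49 ± 0.12 in 92-1. Neither was called in the other lines, but neither effect differed among the lines by the test (0.195 and 0.181), and the SEMA4D call was lost with a single fit of the 48 samples (0.0554). SEMA5A was 174, 128 and 139.5 CPM in 92-1 DMSO and 277, 260.2 and 310.1 CPM with the drug, a rise of 0.93 ± 0.13 (2.23e-05), and was not called in the other lines. SEMA4A was not called in MEL202, the line where FHT-1015 could be tested on it.

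Summed per length, plexin RNA was lower and class 3 semaphorin RNA higher with FHT-1015 at 24 h. The 9 plexins together held 96.4, 90.8 and 98.8 RPKM in the 92-1 DMSO libraries at 24 h and 47.8, 46.4 and 43.6 RPKM with FHT-1015. In MEL202 they held 104, 162 and 136 (DMSO) and 84.1, 79.7 and 86.4 (drug) RPKM, and in MP41 97.1, 127 and 71.2 (DMSO) and 65.5, 52.4 and 53.6 (drug) RPKM. The groups did not overlap in any line, though the MEL202 and MP41 DMSO libraries were spread widely. The 7 class 3 semaphorins went from 10.3 ± 1.25 to 72.2 ± 6.39 RPKM (mean ± SD, n = 3) in 92-1. Their sum went from 26.1 ± 6.46 to 131 ± 3.03 RPKM in MEL202, and in MP41 it went from 19.3 ± 1.87 to 88.5 ± 8.44. All 20 semaphorins together held 114 ± 1.04 RPKM with DMSO and 209.6 ± 2.93 RPKM with the drug in 92-1. The same sum was 74.6 ± 15.2 (DMSO) and 205 ± 5.802 (drug) RPKM in MEL202, and 96.9 ± 16.7 (DMSO) and 157 ± 7.02 (drug) RPKM in MP41. Not every class stood apart from its DMSO libraries. The class 6 members of MP41 held 47.2, 58.1 and 37.1 (DMSO) and 40.7, 35.6 and 30.03 (drug) RPKM, and the class 4 members of 92-1 17.8, 19.9 and 20.3 (DMSO) and 20.4, 21.04 and 19.6 (drug) RPKM, with overlapping groups in both cases. These sums are descriptions and were not tested.

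**Figure D4:**
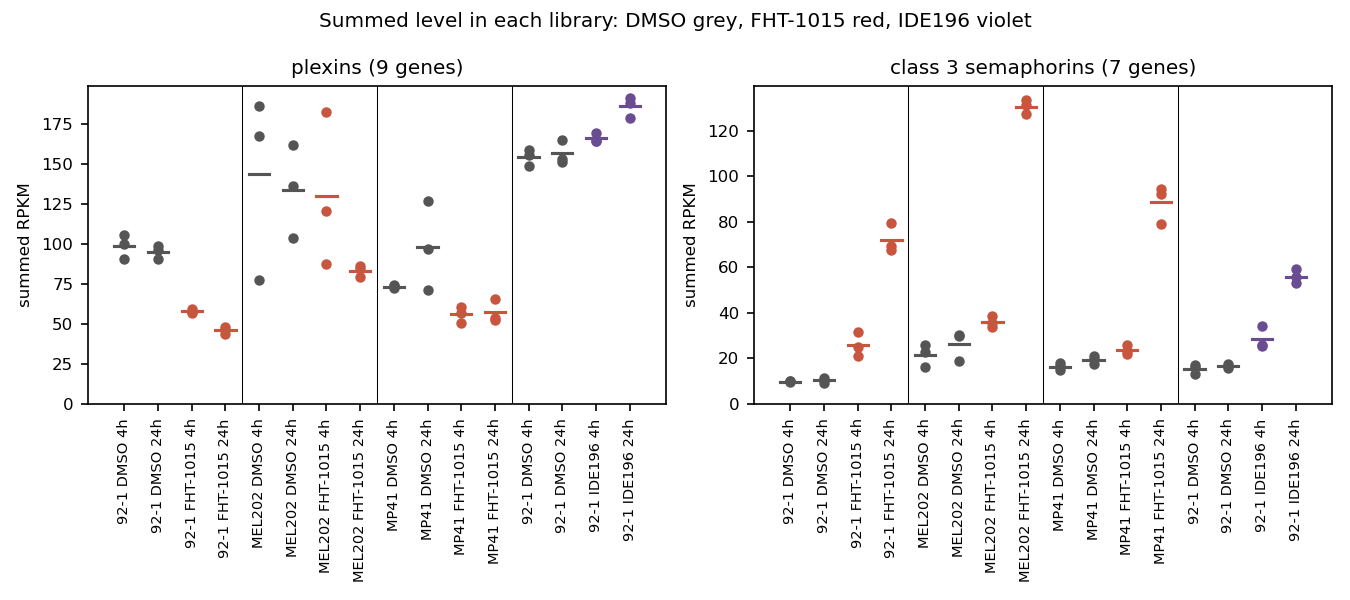
Summed RPKM of the 9 plexins (left) and the 7 class 3 semaphorins (right) in each library (points) with group means (lines), DMSO in grey, FHT-1015 in red and IDE196 in violet. At 24 h the FHT-1015 libraries of each line lie below their DMSO libraries on the left and above them on the right, and the IDE196 libraries lie above theirs on both sides.

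Promoter sequence of members that moved together in the 3 lines is shown to set the ligand and receptor genes side by side. RefSeq (GRCh38.p14) windows matched 27 of the 31 members by symbol, without SEMA3A, SEMA6A, SEMA6B and NRP1, and the 250 bases upstream of each start were searched on both strands for 5 motifs. Below are SEMA3C and SEMA6D, which rose, and PLXNA2 and PLXNC1, which fell, chosen after their values were seen from the members called alike in the 3 lines. Their windows lie within 200 bases of the start that GENCODE 29 gives. Capitals mark motif matches.
SEMA3C promoter (chr7:80922390-80922639, minus strand): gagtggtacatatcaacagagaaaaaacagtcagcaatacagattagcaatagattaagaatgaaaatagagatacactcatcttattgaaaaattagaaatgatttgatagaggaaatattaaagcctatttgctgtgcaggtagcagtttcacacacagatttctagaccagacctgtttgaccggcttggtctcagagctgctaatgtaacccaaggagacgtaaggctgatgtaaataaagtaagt
SEMA6D promoter (chr15:47183839-47184088, plus strand): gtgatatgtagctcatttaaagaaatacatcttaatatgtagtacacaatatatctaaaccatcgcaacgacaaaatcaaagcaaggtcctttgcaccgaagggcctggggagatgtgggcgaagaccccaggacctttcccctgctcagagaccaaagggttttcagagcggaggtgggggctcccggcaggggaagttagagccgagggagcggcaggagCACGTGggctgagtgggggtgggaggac
PLXNA2 promoter (chr1:208244385-208244634, minus strand): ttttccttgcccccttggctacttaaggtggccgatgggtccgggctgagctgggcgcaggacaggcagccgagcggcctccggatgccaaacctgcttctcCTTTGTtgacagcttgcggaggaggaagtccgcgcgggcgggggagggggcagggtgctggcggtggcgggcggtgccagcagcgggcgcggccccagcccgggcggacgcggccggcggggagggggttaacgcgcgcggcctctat
PLXNC1 promoter (chr12:94148327-94148576, plus strand): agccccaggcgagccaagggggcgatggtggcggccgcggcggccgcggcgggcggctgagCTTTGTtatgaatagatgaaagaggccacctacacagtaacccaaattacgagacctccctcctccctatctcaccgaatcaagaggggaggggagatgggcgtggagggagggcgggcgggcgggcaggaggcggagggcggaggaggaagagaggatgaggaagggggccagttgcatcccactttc

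SEMA6D held CACGTG, the E-box read by MITF and its relatives, 28 bases before its start. PLXNA2 and PLXNC1 each held ACAAAG, a core sequence bound by SOX factors, on the opposite strand (so printed as CTTTGT), 148 and 189 bases upstream. CACGTG was in 3 of the 27 member windows (SEMA3E, SEMA4D and SEMA6D) and in 6.32% of all 34943 promoters, and ACAAAG in 3 (SEMA5B, PLXNA2 and PLXNC1) and 13.75%. AACAAT, a further SOX core, was in none of the 27 and in 8.99% of all promoters, the AP-1 site TGANTCA in none and in 6.59%, and the cyclic AMP element TGACGTCA in 1 (SEMA4C) and in 1.63%. None of the motifs contains another. The SEMA3C window had 36.4% G and C, and 7.9% of all promoters had as little or less, and PLXNA2 and PLXNC1 had 72.4% and 65.2%, beside a median of 66.4% over the member windows and 58% over all promoters.

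At 4 h members passed the test with FHT-1015 in 92-1 and, in the main unpaired fits, none did in MEL202 or MP41. The difference among the lines itself passed the test in 2 of 30 members. In 92-1 15 of 27 were called, 3 higher and 12 lower, where 29.5% of all genes were (12.9% higher, 16.7% lower). The median log2 fold change was -0.40 over the members and 0.007 over all genes. In MEL202 none of 30 was called by edgeR where 0.679% of all genes were (0.157% higher, 0.522% lower), with 3 at an unadjusted p under 0.05, 2 called by DESeq2 and 0 by limma-voom. The count was also 0 without the library with few detected genes. In MP41 none of 28 was called where 0.225% of all genes were (0.0708% higher, 0.154% lower), with 8 at an unadjusted p under 0.05, 2 by DESeq2 and 7 by limma-voom. Without MP41 DMSO replicate 2 or 3 of 24 h, which share the fit, 2 were called. Fitted on its 6 libraries of 4 h alone, MP41 had 4 members called, SEMA3C, PLXNA2, PLXNB1 and PLXNC1, and with the replicate number as a block 1, SEMA3C (edgeR adjusted p = 0.0353). Shares of all genes were not computed at an unadjusted p or in these other fits, so their counts cannot be set against the rest of the genes. SEMA3C at 4 h was 41.02, 102 and 87.7 (DMSO) and 167, 143 and 187 (drug) CPM in MEL202, and 25.96, 26.9 and 35.2 (DMSO) and 63.9, 57.6 and 78.3 (drug) CPM in MP41. Its groups did not overlap in either line. The log2 changes of SEMA3C were 1.099 ± 0.30 and 1.18 ± 0.26 (edgeR adjusted p = 0.159 and 0.101), beside 1.56 ± 0.14 in 92-1, and the difference among the lines did not pass the test (0.884). The common spread between replicates in the fits (biological coefficient of variation) was 0.117 in 92-1, 0.294 in MEL202 and 0.217 in MP41. A wider spread lowers the power to call a change, and its part in the counts above was not tested.

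NRP2 and several plexins of 92-1 were lower at 4 h. NRP2 was 101, 103 and 84.1 CPM in DMSO and 44.5, 45.4 and 29.8 CPM with FHT-1015, PLXNC1 116, 135 and 158 (DMSO) and 54.6, 61.2 and 47.7 (drug) CPM, and PLXNA1 299, 339.9 and 320.4 (DMSO) and 149.8, 159.5 and 134 (drug) CPM. They fell, by log2 changes of -1.28 ± 0.16, -1.34 ± 0.17 and -1.14 ± 0.085 (edgeR adjusted p = 1.96e-05, 1.87e-05 and 1.06e-07). PLXND1 went from 87.5, 101 and 99.4 to 46.3, 45.8 and 46.4 CPM, a change of -1.08 ± 0.086, and PLXNB1 fell by 0.497 ± 0.10. None of these DMSO and drug groups overlapped. SEMA7A fell the furthest at 4 h, from 7.73, 8.28 and 9.22 to 1.26, 1.23 and 2.26 CPM (-2.47 ± 0.22, 5.94e-07). PLXNA2, in contrast, was 142, 132 and 142 CPM with DMSO and 138, 129 and 138 CPM with the drug at 4 h (0.717). The ligands SEMA3A and SEMA3C were already higher, from 2.27, 2.63 and 1.91 to 11.4, 10.9 and 7.17 CPM and from 49.4, 46.5 and 50.4 to 179, 142 and 118 CPM, by 2.09 ± 0.19 and 1.56 ± 0.14 (8.20e-07 and 6.53e-07). SEMA3D rose by 1.496 ± 0.54 (0.0493) from 2 to 7 reads per library in DMSO, a call lost in 10 of the 12 fits that left out 1 library. Those 10 left out each of the 6 DMSO libraries and FHT-1015 replicates 1 and 3 of both times (adjusted p 0.0523 to 0.193).

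The 24 h effect differed from the 4 h effect in 19 members in 92-1, 12 upward and 7 downward (45.5% of all genes, 21.1% upward and 24.3% downward). It differed in 8 in MEL202, 4 each way (6.89%, 3% and 3.9%), and in 10 in MP41, 5 each way (18.6%, 7.73% and 10.9%), which was 17 without the third MP41 DMSO replicate of 24 h. In 92-1 the members SEMA4B, SEMA5A, SEMA6B and PLXNB2 were called lower at 4 h and higher at 24 h, 4 in all, where 5.85% of all genes were called in opposite directions at the 2 times. SEMA6B went from 6.93, 7.96 and 9.71 CPM with DMSO to 3.08, 4.83 and 5.55 CPM at 4 h, a change of -0.91 ± 0.20, before its 24 h rise. SEMA4B was 9.54, 8.49 and 7.75 (DMSO) and 5.59, 4.51 and 5.62 (drug) CPM at 4 h, a change of -0.74 ± 0.14, and PLXNB2 152, 170.4 and 187 (DMSO) and 96.2, 112 and 117 (drug) CPM, a change of -0.67 ± 0.11. SEMA5A was 175, 170.0 and 156 (DMSO) and 154, 132 and 98.9 (drug) CPM at 4 h, a change of -0.403 ± 0.13 (0.0327) that was lost without DMSO replicate 1 or 2 or FHT-1015 replicate 2 or 3 (adjusted p 0.0668 to 0.124). SEMA6A fell by 0.504 ± 0.089 at 4 h, from 826, 912 and 832 to 608, 664 and 569 CPM, and at 24 h held 734, 768 and 698 CPM with DMSO and 764, 899 and 917 CPM with the drug (0.0562). SEMA4C fell by 0.89 ± 0.096 at 4 h. In a single fit of the 48 samples the 4 h calls of SEMA3D, SEMA5A, SEMA6A and PLXNB1 in 92-1 were lost (adjusted p = 0.129, 0.493, 0.136 and 0.162), and SEMA3D also with DESeq2 (0.062) and limma-voom (0.0758).

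The FHT-1015 effect differed among the 3 lines in 10 of 30 members at 24 h, where it did in 12% of all genes, and in 2 at 4 h (1.38%). At 24 h the smallest adjusted p was that of SEMA3A (1.06e-08), which rose the most in 92-1. SEMA3B followed (1.55e-05), lower in MEL202 and MP41 and at 4.95 ± 1.15 CPM in DMSO and 6.74 ± 0.746 CPM with the drug in 92-1. SEMA3G (0.000446) was called in MP41, SEMA6B (0.0002496) in 92-1 and MEL202, and SEMA6A (0.00735) in MP41. PLXNC1 (0.00121) and NRP2 (0.0156) fell in every line and the most in 92-1. The NRP2 difference was lost without the first DMSO or the third FHT-1015 replicate of 92-1 at 24 h (0.0541 and 0.0736). SEMA7A (0.00837) and PLXND1 (0.0113) were called in 92-1 and MP41. SEMA6D (0.0194), which rose in all 3 lines, was the last of the 10, and its difference was lost without the first DMSO or the first FHT-1015 replicate of MEL202 at 24 h (0.0798 and 0.0625). SEMA3C, PLXNA1 and PLXNA2 were not among the 10, with adjusted p of 0.598, 0.159 and 0.859. At 4 h the 2 members were SEMA7A (0.00279) and SEMA3A (0.0172), and only 1 was called without DMSO replicate 1 or 3 or FHT-1015 replicate 1 or 2 of 92-1 at 4 h.

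IDE196 also changed most of the members tested in 92-1 at 24 h, and it raised several receptors that FHT-1015 lowered. At 24 h 23 of 29 members were called, 17 higher and 6 lower, where 58.1% of all genes were (28.7% higher, 29.4% lower), and the median log2 fold change was 0.66 over the members and 0.029 over all genes. Semaphorins were higher in 10 and lower in 4 of 18, plexins higher in 5 and lower in 2 of 9, and both neuropilins were higher. At 4 h 9 of 29 were called, 5 higher and 4 lower, against 16.2% of all genes (6.89% higher, 9.3% lower). The 4 h count was 5 without DMSO replicate 6 or IDE196 replicate 2 of 4 h.

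NRP2 changed direction with time under IDE196. It was 104, 92.9 and 85.5 CPM with DMSO and 57.1, 61.2 and 53.5 CPM with IDE196 at 4 h, and 133, 98.2 and 87.7 (DMSO) and 261, 225 and 238 (drug) CPM at 24 h. The groups did not overlap at either time, with a change of -0.72 ± 0.13 (edgeR adjusted p = 0.000662) and then a rise of 1.14 ± 0.13 (6.13e-07). Between the 2 times, 19 members differed in their IDE196 effect, 13 upward and 6 downward (30.7% of all genes, 13.5% and 17.2%). NRP2 was the one member called in opposite directions at the 2 times in that experiment, where 0.356% of all genes were. NRP1 rose at 24 h by 3.34 ± 0.63, from 1 to 4 reads per DMSO library to 0.746, 1.21 and 1.73 CPM. PLXNA4 fell by 5.43 ± 0.28 at 24 h (8.36e-11), from 18.4, 19.97 and 21.2 to 0.326, 0.683 and 0.416 CPM, or 42.98-fold. PLXNA2 was 272, 212 and 223 CPM with DMSO and 107, 120.1 and 143 CPM with IDE196 at 4 h, and 198, 207 and 203 (DMSO) and 66.6, 65.5 and 72.1 (drug) CPM at 24 h, changes of -0.94 ± 0.11 and -1.62 ± 0.11 (8.62e-06 and 1.53e-09). PLXNA3 and PLXNB3 rose by 1.66 ± 0.17 and 1.19 ± 0.17 at 24 h. In PLXNB3 20.4% of exon bases overlap SRPK3 on the same strand.

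Several ligands rose under IDE196. SEMA3D went from 0.233, 0.403 and 0.634 CPM with DMSO to 4.94, 7.78 and 12.6 CPM at 24 h, by 4.24 ± 0.41 (edgeR adjusted p = 1.31e-07). SEMA3B rose from 2.97 ± 0.117 to 27.8 ± 1.96 CPM (mean ± SD, n = 3), by 3.17 ± 0.16, and SEMA4A by 2.76 ± 0.63 to 1.14 ± 0.494 CPM. SEMA6D was 1.95, 1.79 and 0.714 CPM with DMSO and 6.09, 6.41 and 4.54 CPM with IDE196 at 4 h and 3.03, 1.76 and 1.36 (DMSO) and 13.8, 12.4 and 13.1 (drug) CPM at 24 h, rises of 1.92 ± 0.30 and 2.62 ± 0.28. SEMA3C rose by 1.02 ± 0.14 at 4 h and 1.74 ± 0.14 at 24 h, SEMA6C by 1.75 ± 0.14 at 24 h, from 8.299, 8.97 and 11.9 to 32.95, 34.5 and 34.1 CPM, SEMA4B by 1.000 ± 0.15, SEMA4F by 0.94 ± 0.097, SEMA4G by 0.66 ± 0.15 and SEMA6A by 0.85 ± 0.081. SEMA4C fell by 0.56 ± 0.10 at 24 h. SEMA3F, SEMA3G, SEMA6B, SEMA7A, PLXNA1 and PLXNB2 were not called at 24 h. At 4 h SEMA4C fell by 0.32 ± 0.10 and PLXNA4 fell by 0.56 ± 0.18, and SEMA6A, SEMA6C and PLXNB2 rose by 0.29 ± 0.081, 0.49 ± 0.15 and 0.29 ± 0.093.

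These 5 calls at 4 h were each lost with a single fit of the 48 samples (adjusted p 0.183 to 0.654) and without some single libraries. By the replicate numbers in the titles, 4 to 6 for DMSO and 1 to 3 for IDE196, the SEMA4C call was lost without DMSO 5 or 6 or IDE196 1 or 2 of 4 h (edgeR adjusted p 0.0605 to 0.164). The SEMA6A call was lost without DMSO 4 or 5 or IDE196 2 or 3 (0.057 to 0.0765), and the SEMA6C call without DMSO 4 or 6 or IDE196 1 or 3 (0.0538 to 0.138). The PLXNA4 call, whose groups overlapped, was lost without DMSO 5 or 6 or IDE196 1 or 2 of 4 h or DMSO 5 of 24 h (0.0532 to 0.194). The PLXNB2 call was lost without any DMSO or IDE196 2 or 3 of 4 h, or without DMSO 4 or 5 or IDE196 1 or 2 of 24 h (0.0524 to 0.163).

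**Figure D5:**
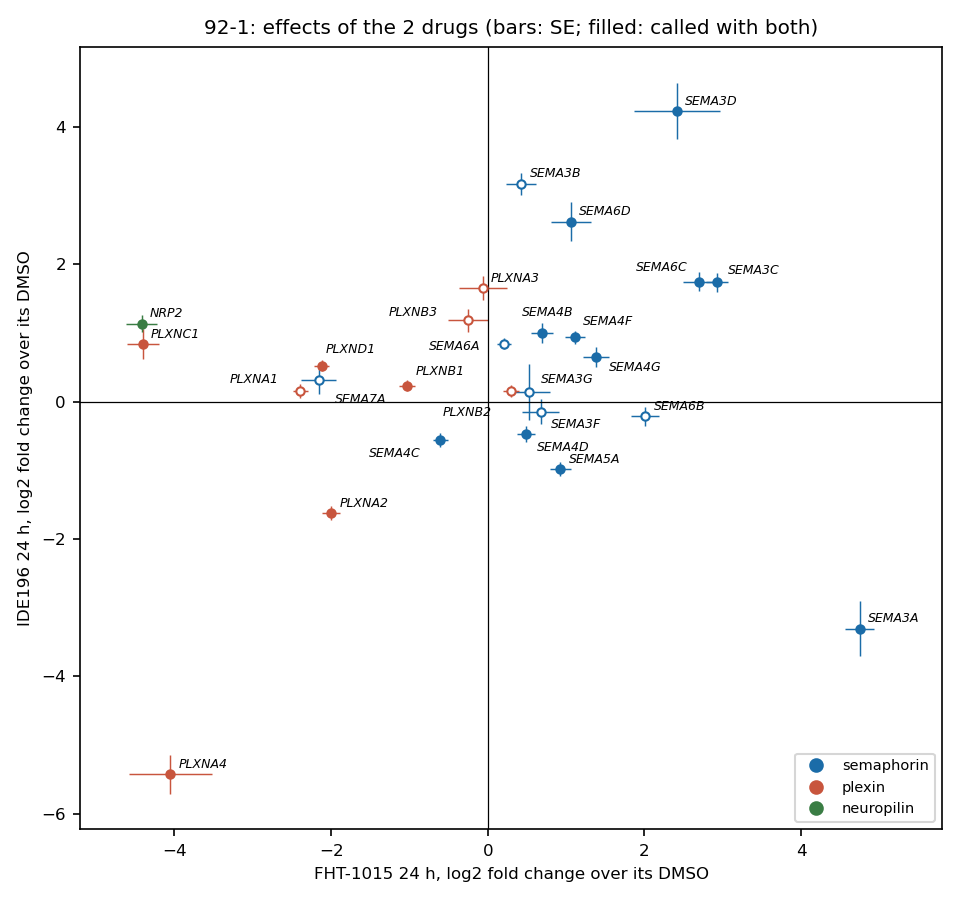
Log2 fold change at 24 h in 92-1 with FHT-1015 (horizontal) and IDE196 (vertical) for the 27 members tested with both, bars for SE, filled where both were called, coloured by family. NRP2, PLXNC1, PLXND1 and PLXNB1 lie at the upper left, SEMA3A, SEMA5A and SEMA4D at the lower right, and SEMA3C, SEMA3D, SEMA6C and SEMA6D at the upper right.

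Of the 27 members tested with both drugs in 92-1 at 24 h, 7 were higher with both (15.7% of all genes were), 3 lower with both (20.1%) and 7 called in opposite directions (7.1%). Higher with both were SEMA3C, SEMA3D, SEMA4B, SEMA4F, SEMA4G, SEMA6C and SEMA6D, and lower with both were PLXNA2, PLXNA4 and SEMA4C. Those in opposite directions were NRP2, PLXNB1, PLXNC1 and PLXND1, lower with FHT-1015 and higher with IDE196, and SEMA3A, SEMA4D and SEMA5A, the reverse. SEMA3A went from 3.64, 2.72 and 4.39 CPM with DMSO to 0.2797, 0.158 and 0.714 CPM with IDE196 at 24 h, a change of -3.31 ± 0.40 (edgeR adjusted p = 1.85e-06). PLXNC1 was 197, 151 and 109 (DMSO) and 318, 266 and 261 (drug) CPM, a rise of 0.84 ± 0.22 (0.00313), and PLXND1 174, 168 and 166 (DMSO) and 261, 235 and 260.0 (drug) CPM, a rise of 0.52 ± 0.078. SEMA5A was 277, 298 and 261 (DMSO) and 154, 127 and 158 (drug) CPM, a change of -0.98 ± 0.10. SEMA4D was 12.9, 13.8 and 14.4 CPM with DMSO and 18.5, 21.6 and 18.7 CPM with FHT-1015, against 17.6, 16.2 and 17.3 (DMSO) and 13.3, 11.5 and 13.2 (drug) CPM for IDE196, a change of -0.47 ± 0.12. PLXNB1 was 168, 164 and 172 (DMSO) and 187, 211 and 216 (drug) CPM, a rise of 0.23 ± 0.077 (0.0146) that was lost without DMSO replicate 5 or IDE196 replicate 2 or 3 (adjusted p 0.066 to 0.0677). In a single fit of the 48 samples the SEMA4D and PLXNB1 calls with IDE196 were lost (0.118 and 0.311), and with no filter on low counts that of PLXNB1 (0.0697).

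The difference between the drug effects itself passed the test in 20 of 29 members at 24 h, 8 upward and 12 downward, where it did in 33% of all genes (15.9% and 17.1%). At 4 h it did in 16, 3 upward and 13 downward (24.6% of all genes, 10.7% and 14%). Each drug had its own experiment and DMSO set, so drug and experiment cannot be told apart in these differences. The FHT-1015 effect minus the IDE196 effect at 24 h was 8.06 ± 0.40 for SEMA3A, -5.56 ± 0.24 for NRP2 and -5.25 ± 0.34 for PLXNC1 (log2 ± SE, edgeR adjusted p = 7.38e-15, 5.46e-16 and 1.99e-12). At 4 h SEMA6A and PLXNB2 were called lower with FHT-1015 and higher with IDE196, where 4.33% of all genes were called in opposite directions. SEMA6A was 445, 479 and 511 CPM with DMSO and 569.6, 581 and 606 CPM with IDE196 at 4 h, and PLXNB2 336, 390.2 and 397 (DMSO) and 415, 469.8 and 494 (drug) CPM. SEMA3C was higher and NRP2 and SEMA4C were lower with both drugs at 4 h, where 1% and 2.28% of all genes were.

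The other genes of the pathway were described by 3 lists. Of 16 partner receptors, which bind semaphorins or form complexes with plexins, 10 could be tested in 92-1, and FHT-1015 at 24 h raised 5 and lowered 3, where 60.6% of all genes were called. In MEL202 it raised 3 and lowered 1 of 12 (18.8% of all genes), and in MP41 2 and 2 of 11, a share near that of all genes (36.1%). ITGA1, an integrin chain of the SEMA7A receptor, had the largest rise of the list in all 3 lines, 4.12 ± 0.20, 2.39 ± 0.45 and 2.52 ± 0.41, from 2.98 to 53.3 CPM in 92-1. MET, a receptor kinase that associates with B-type plexins, had the largest called falls of the list, with log2 changes of -2.42 ± 0.14, -1.14 ± 0.25 and -1.34 ± 0.21. IDE196 at 24 h raised 6 and lowered 3 of 10, against 58.1% of all genes, and NRCAM, an adhesion molecule of neuropilin complexes, fell by 4.64 ± 0.11, from 493 to 20.4 CPM. Of the 5 VEGF family ligands, FHT-1015 at 24 h lowered 3 of 5 tested in 92-1 and 3 of 4 in MEL202 and MP41, where 31.4%, 10.1% and 18.7% of all genes were lower. VEGFC, the NRP2 ligand, rose by 1.13 ± 0.19 in MEL202 and 1.69 ± 0.17 in MP41. In 92-1 its log2 change at 24 h was 0.04 ± 0.17 and did not pass the test (edgeR adjusted p = 0.854), and with IDE196 it fell by 2.67 ± 0.32. Of 32 intracellular partners, FHT-1015 at 24 h raised 11 and lowered 15 of 32 in 92-1, 5 and 3 of 30 in MEL202, and 6 and 6 of 31 in MP41, against 60.6%, 18.8% and 36.1% of all genes called. The median log2 changes of this list in the 3 lines were -0.11, 0.19 and 0.24, those of the partner receptors 0.28, 0.34 and -0.21 and those of the VEGF family ligands -0.93, -0.93 and -0.74. The largest falls there were FARP2, a RAC activator bound by A-type plexins, in 92-1 and MP41 (-1.34 ± 0.15 and -1.46 ± 0.24) and DPYSL2, a microtubule binder that answers SEMA3A, in MEL202 (-1.42 ± 0.26). IDE196 at 24 h raised 12 and lowered 6 of 31, the share of all genes called being 58.1%, and MICAL2, an actin oxidase, rose by 2.61 ± 0.18.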

How the data were processed

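RNA-seq libraries of 48 samples had been made from poly-A RNA with an unstranded kit, per the labels' protocols. The authors deposited raw counts of reads per gene, whole numbers with no normalisation, for 58870 genes, and the submitters' processing notes name limma and the build hg38 without their roles. The column of unstranded counts was used. Reads not assigned to a gene, which stand in 4 summary lines, were 17.09% to 22.74% of all reads listed and were left out. The 92 spike-in controls held 0 reads. The genes were tested with edgeR 4.0.16 in R 4.3.3 (TMM, filterByExpr, quasi-likelihood F-test, Benjamini-Hochberg over all genes tested, adjusted p under 0.05). Each experiment, a line with 1 drug, its DMSO and both times, was fitted on its 12 samples. Differences among lines came from 36 samples, between drugs from the 24 of 92-1, and DMSO levels from the 24 DMSO samples. The other lines were compared in DMSO with the FHT-1015 set of 92-1. Printed CPM use TMM over the 48 libraries, and RPKM divide them by exon length in GENCODE 29, which matched 58552 of the genes. Fold changes come from the fits and are relative to the bulk of genes.

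A member's value was printed in every sample of a comparison if it was called alike in the 3 lines, called in opposite directions by lines, drugs or times, or had the largest called change in a comparison with a mean of at least 1 CPM. Other members are given by counts and values. In the other lists at most the member with the largest called change in each direction is named. The members, lists and rules were chosen with earlier results of these data known. The labels do not say what a replicate number stands for. Numbers were taken to pair samples where all 3 same-numbered pairs of a comparison had correlated deviations (r over 0.1), which held in MP41 at 4 h (0.139, 0.27 and 0.113) and in no other FHT-1015 comparison (10 of 18 pairs in all). Alternatives were RLE normalisation, no filter, the stranded columns summed, DESeq2 1.42.0, limma-voom 3.58.1, other sets of samples, a replicate block, and each library left out in turn. Shares of all genes were computed for the main fits alone. Intervals and floors of reads cover counting error only.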

Additional observations from a re-analysis of the deposited data

Results flagged for a closer look

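The effects at 24 h and 4 h differed in 19 of 27 members in 92-1 with FHT-1015, 8 of 30 in MEL202, 10 of 28 in MP41 and 19 of 29 in 92-1 with IDE196, by a test of the difference itself (edgeR adjusted p under 0.05). The shares over all genes tested were 45.5%, 6.89%, 18.6% and 30.7%. Those called in opposite directions at the 2 times in 92-1 with FHT-1015 differed (24 h minus 4 h, log2) by 1.438 for SEMA4B, 1.328 for SEMA5A, 2.92 for SEMA6B and 0.965 for PLXNB2, and with IDE196 NRP2 differed by 1.861.

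The effects of FHT-1015 and IDE196 in 92-1 differed in 16 of 29 members at 4 h and 20 at 24 h, where 24.6% and 33% of all genes did. Drug and experiment cannot be told apart in these differences. For members called in opposite directions by the drugs, FHT-1015 minus IDE196 at 4 h was -0.793 for SEMA6A and -0.96 for PLXNB2. At 24 h it was 8.061 for SEMA3A, 1.902 for SEMA5A and 0.962 for SEMA4D, and -5.562 for NRP2, -5.246 for PLXNC1, -2.646 for PLXND1 and -1.263 for PLXNB1.

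The FHT-1015 effect differed among the lines in 2 of 30 members at 4 h (1.38% of all genes), SEMA7A (edgeR adjusted p = 0.00279) and SEMA3A (0.0172), and in 10 at 24 h (12% of all genes). Those at 24 h were SEMA3A (1.06e-08), SEMA3B (1.55e-05), SEMA6B (0.00025), SEMA3G (0.000446), PLXNC1 (0.00121), SEMA6A (0.00735), SEMA7A (0.00837), PLXND1 (0.0113), NRP2 (0.0156) and SEMA6D (0.0194).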

How the results depend on the processing

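Of the 104 called fold changes of members, 88 stayed called under every alternative that gave them an adjusted p, other than leaving out a library. With each library left out in turn 88 stayed called, and 0 changed direction. SEMA3D in 92-1 with FHT-1015 had an adjusted p in 7 alternatives, where the other called members had 8. Of the 26 differences named above, 22 stayed called, and 4 were lost in some setting. The SEMA7A difference among lines at 24 h was lost with no filter on low counts. Counts of members that moved by over 1.5 times were these. At 4 h in MEL202 (0) there was 1 with no filter and 2 with DESeq2 or all 48 samples in one fit. At 4 h in MP41 (0) there were 2 with no filter, 1 with the replicate block, 2 with DESeq2, 7 with limma-voom, 4 with only the 6 samples compared, 1 with all 48 samples, and 0 to 2 with a library left out. At 4 h with IDE196 (9) there were 5 with 6 samples, 4 with all 48 samples, and 5 to 9 with a library left out. Members that differed among lines at 4 h (2) were 4 with no filter and 1 to 3 with a library left out, and the time difference in MP41 (10) was 7 to 17. Members higher in the 3 lines (7) were 4 with 6 samples, and members lower (4) were 7 with limma-voom. In each case the cause was not tested, and the share of all genes called in that setting was not computed.

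The fit with the replicate number as a block called 17, 23, 0, 16, 1 and 18 members in the FHT-1015 comparisons (92-1, MEL202 and MP41, each at 4 and 24 h), and lost 1 of the 88 called values it could be run on (fold changes with FHT-1015 and named differences among lines or between times), that of SEMA4B in MEL202 at 24 h (adjusted p = 0.0609). In the FHT-1015 experiments 13 of 18 treated libraries correlated best with the DMSO library of their own number, a hint from the data and not from the design. No paired analysis was possible for IDE196, because its DMSO samples carry other numbers. Members left untested had at most 12 reads in any library of the experiment and were removed by the filter on low counts.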
